A study of Mus musculus with 4 samples.

Results

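Oxidative phosphorylation subunits were examined in Lewis lung carcinoma (LLC) tumors that did or did not express chemerin, a secreted chemoattractant protein. The genes were taken by symbol alone, as Nduf genes of the a, b, c, s and v series, Sdha to Sdhd, Uqcr, Cox4 to Cox8 and Atp5 genes and the protein genes of mitochondrial DNA, leaving out symbols with -ps. This rule gave 97 of the 47729 genes in the table, 84 in the nucleus and 13 in mitochondrial DNA, and used no measured value. LLC is a mouse lung carcinoma line derived from C57BL/6 mice. LLC-Chem tumors grew from LLC cells that carried pEFIN plasmids for murine chemerin, called full size in the labels and, in the study's methods, a form that is active without further processing, and LLC-WT tumors from cells labelled wild type, for which the study's text also speaks of an empty vector. Both were grafted under the skin of the back of C57BL/6 mice and taken at day 5. Transfected cells were selected as individual clones and each library holds several pooled tumors, so that differences between clones and the action of chemerin cannot be told apart. Each group has 2 pools, and RNA of the whole tumor, host cells included, was sequenced.

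In the inner mitochondrial membrane, complexes I and II pass electrons from NADH and succinate to ubiquinone, complex III passes them to cytochrome c and complex IV to oxygen. Complexes I, III and IV pump protons, and complex V, the ATP synthase, uses the returning protons to make ATP. All complexes except II are built from subunits of both the nuclear and the mitochondrial genome, and tumor cells short of oxygen are known to lower mitochondrial respiration and to rely on glycolysis.

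Fitted library totals ran from 28470000 to 33990000 reads, and 3 reads, the least taken as detectable, were worth 0.0883 to 0.105 RPM (reads scaled to a common total in each pool). Rarres2, the gene of chemerin, measured 102 and 98.2 RPM in LLC-WT and 106 and 106 RPM in LLC-Chem (log2 fold change 0.08 ± 0.09 SE, adjusted p = 0.541, limma), so that it does not check the labels, and LLC-Chem here means the pools labelled so. Fold changes are LLC-Chem over LLC-WT on the log2(RPM + 0.5) scale, which understates changes of weak genes. Genes that averaged 1 RPM or more over the pools were tested with limma (two-sided, 2 pools against 2) and called at a Benjamini-Hochberg adjusted p under 0.05 over all 13694 genes tested. The p-values measure the spread between these pools. Among marker genes, endothelial (7 of 7), mural cell (4 of 5), neutrophil (3 of 4 tested) and proliferation genes (5 of 5) were called lower in LLC-Chem, and lung epithelium markers were at most 0.25 RPM in sum in any pool.

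Most nuclear-encoded subunits were slightly lower in LLC-Chem, in all 5 complexes, while few passed the test. Of the 97 subunit genes, 89 were tested, 4 were called higher (Ndufb2, Atp5s, Cox7a2l and Ndufa6) and 9 lower (Ndufa4l2, Cox5a, Sdhb, Uqcr11, Ndufc2, Uqcrq, Ndufs4, Atp5o and Ndufs7). All 13 are nuclear, which is 5.13% of the 78 nuclear subunits tested for the higher and 11.5% for the lower calls, against 9.54% and 13.5% of all genes tested. The share called was thus no larger than among other genes. In both LLC-Chem pools 55 of these 78 (70.5%) were lower than in both LLC-WT pools, where 39.3% of all genes tested were, and 8 of 78 (10.3%) were higher, where 33.1% of all genes were. The median log2 fold change of the nuclear subunits was -0.24 (quartiles -0.36 and -0.04) and that of all genes tested -0.04. Fewer cells of a type and less RNA per cell cannot be told apart in whole tumors.

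Added over the 84 nuclear genes, the level was 9274 and 8750.0 RPM for LLC-WT against 8209.6 and 7653 RPM for LLC-Chem. Both LLC-Chem pools lay below both LLC-WT pools, and the mean was 9012 ± 371 RPM (SD, n = 2) against 7931 ± 394 RPM (SD, n = 2), a difference of -12.0%. An exact permutation test of 2 pools against 2 cannot go below p = 0.33, the value found here. Pools of a group were not alike in this respect. LLC-WT pool 2 was below pool 1 in 66 of the 78 tested nuclear subunits, with a median log2 difference of -0.10, and LLC-Chem pool 2 below pool 1 in 59 of 78, with a median of -0.09. Of the 4 pairs of an LLC-Chem and an LLC-WT pool, the closest, LLC-Chem pool 1 and LLC-WT pool 2, differed by a median of -0.14 and the farthest by -0.33. In either direction, the gap between group means exceeded the larger gap between pools of a group in 56 of 78 (71.8%). Of all genes tested, 61.3% did so. Of the 78 fold changes 64 were below 0, 60 to 66 without any 1 pool, 58 with TMM and 61 with median-of-ratios scaling. Markers of proliferating cells also fell, from a sum of 1000.5 and 836 RPM to 605 and 541 RPM, and the part of this in the difference was not tested.

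**Figure D1:**
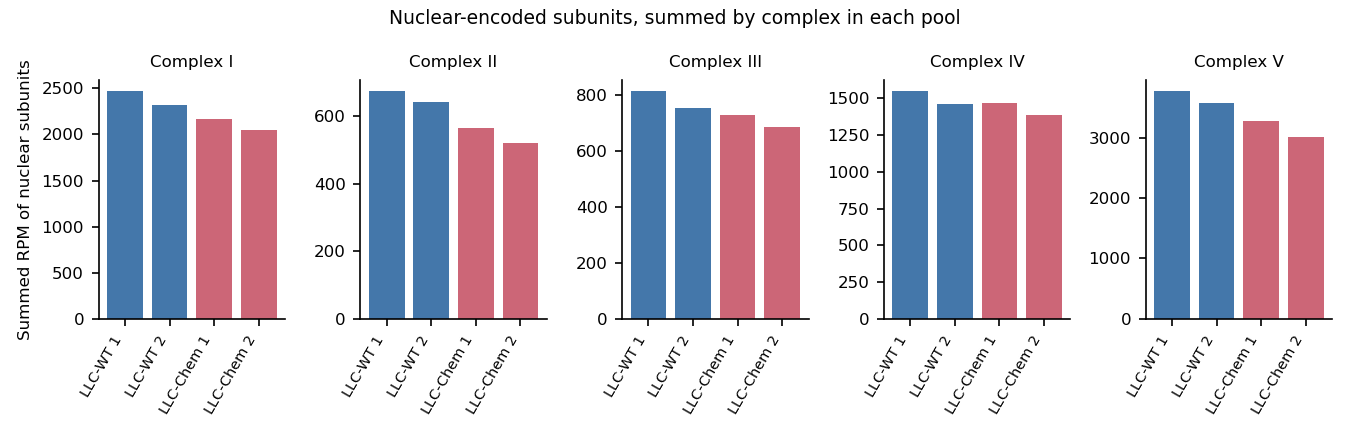
Summed RPM of the nuclear-encoded subunits of each complex (vertical axes, starting at 0) in the 2 LLC-WT pools (blue) and the 2 LLC-Chem pools (red). Both LLC-Chem pools sit below both LLC-WT pools for complexes I, II, III and V, and the pools overlap for complex IV.

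By complex, the summed nuclear subunits differed by -12.0% for complex I, -17.6% for complex II, -9.64% for complex III, -5.14% for complex IV and -14.3% for complex V. Complex II went from 674 and 644 RPM to 565 and 522 RPM, and complex IV from 1549 and 1462 RPM to 1469 and 1386 RPM. Complex IV is the only 1 of the 5 whose pools overlapped. The median fold changes of the tested subunits lay close together, at -0.25, -0.28, -0.23, -0.20 and -0.21 for complexes I to V. Differences between complexes were not tested.

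**Figure D2:**
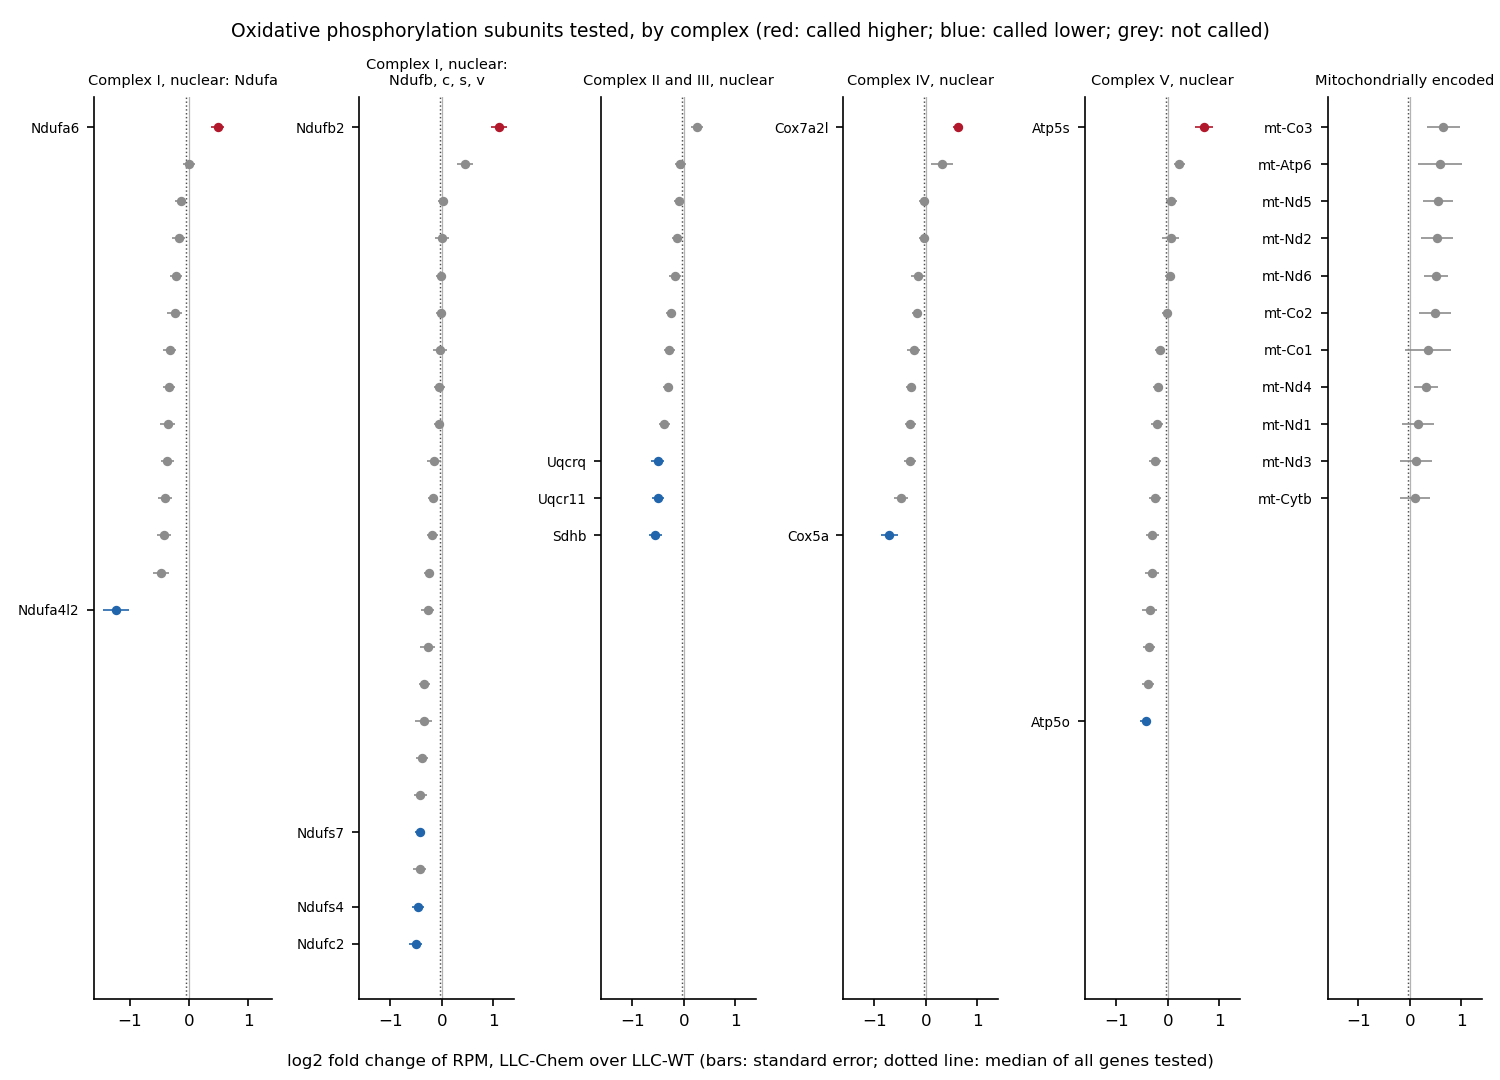
Log2 fold change of each of the 89 tested subunits (horizontal axis, LLC-Chem over LLC-WT, bars 1 standard error) by complex and genome, with the median of all genes as a dotted line and names beside called and mitochondrially encoded genes. Most nuclear subunits lie left of 0 by less than 0.5, 4 stand to the right in red (called higher), 9 to the left in blue (called lower), and the 11 mitochondrially encoded genes lie right of 0 with wide errors.

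Complex I takes electrons from NADH through a matrix arm of flavin and iron-sulfur subunits into a membrane arm. All 37 nuclear genes named for it were tested, and 27 were lower and 3 higher in both LLC-Chem pools. Lower in both were 12 of 14 Ndufa, 6 of 10 Ndufb, 2 of 2 Ndufc, 6 of 8 Ndufs and 1 of 3 Ndufv genes. Of the 37 genes, limma called 2 higher and 4 lower, Ndufa4l2 included. Ndufs7, which holds an iron-sulfur cluster next to the ubiquinone site, was called lower, at 60.5 and 57.6 RPM in LLC-WT and 44.5 and 43.1 RPM in LLC-Chem. Its fold change was -0.43 ± 0.10 (SE), with an adjusted p of 0.0379 from limma. Ndufs1, the largest subunit, measured 107 and 94.7 RPM against 99.2 and 100.1 RPM, so that its pools overlapped.

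Supernumerary subunits surround the catalytic ones and serve the assembly and stability of the complex. Ndufs4, a subunit needed for a stable matrix arm, measured 60.1 and 53.3 RPM in LLC-WT and 42.5 and 39.7 RPM in LLC-Chem (fold change -0.46 ± 0.11 SE, adjusted p = 0.043, limma). Ndufc2, of the membrane arm, measured 56.9 and 49.0 RPM against 39.5 and 34.5 RPM (fold change -0.51 ± 0.13 SE, adjusted p = 0.0463, limma). Both were lower in each LLC-Chem pool by more than the gap between pools of a group. Ndufa6, an accessory subunit of the matrix arm, went the other way, with 60.3 and 54.6 RPM in LLC-WT and 79.7 and 80.9 RPM in LLC-Chem (fold change 0.48 ± 0.10 SE, adjusted p = 0.0307, limma). Ndufb2, of the membrane arm, had the largest positive fold change of the 89 tested subunits, from 5.75 and 5.75 RPM to 12.3 and 13.6 RPM (fold change 1.11 ± 0.16 SE, adjusted p = 0.0152, limma). Its level per kilobase of merged exons (5628 bases) was 1.02 RPM in LLC-WT, the lowest of the 10 Ndufb genes, whose others lay between 10.6 and 84.8 RPM per kilobase. Ndufv3, a small subunit of the flavin module, measured 46.3 and 58.0 RPM against 77.2 and 64.6 RPM and did not pass the test (adjusted p = 0.0907, limma).

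Ndufa4l2 showed the largest fall of all 89 subunits. The gene (chr10:127514967-127517154, plus strand, GRCm38) encodes a paralog of Ndufa4 that is known to be induced when oxygen is low and to restrain respiration. It measured 42.8 and 66.3 RPM in LLC-WT and 21.5 and 23.4 RPM in LLC-Chem, with means of 54.6 ± 16.6 and 22.5 ± 1.34 RPM (SD, n = 2 each). The fold change was -1.23 ± 0.22 (SE, adjusted p = 0.0219, limma), and the LLC-WT pools differed from each other more than the LLC-Chem pools did. Without LLC-WT pool 2 the fold change was -0.92. Ndufa4, counted here with complex I by its name although it is now placed in complex IV, measured 118 and 99.1 RPM against 83.7 and 72.4 RPM (adjusted p = 0.0546, limma). In RPM, not per length, Ndufa4l2 came to 36.4% and 66.9% of Ndufa4 in LLC-WT and 25.7% and 32.4% in LLC-Chem (exact permutation p = 0.33, the smallest possible). Mural cell markers were also lower in LLC-Chem. Their sum was 221 and 185 RPM in LLC-WT and 62.5 and 41.6 RPM in LLC-Chem, 4 of 5 (Acta2, Rgs5, Pdgfrb and Cspg4) were called lower and none was at 0. Within each group, pool 1 had the higher mural sum and pool 2 the higher Ndufa4l2 level, the latter by little in LLC-Chem (21.5 and 23.4 RPM). With 2 pools per group, this order cannot show whether mural cells and Ndufa4l2 are linked. Of 6 fibroblast markers, Col1a1 and Col1a2 were called lower and Pdgfra higher, with sums of 23381 and 44289 RPM against 32681 and 29632 RPM. Of 7 macrophage markers, Csf1r and Cx3cr1 were called lower, with sums of 1769 and 2153 RPM against 1559 and 1006 RPM. The part of any of these in the fall of Ndufa4l2 was not tested.

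**Figure D3:**
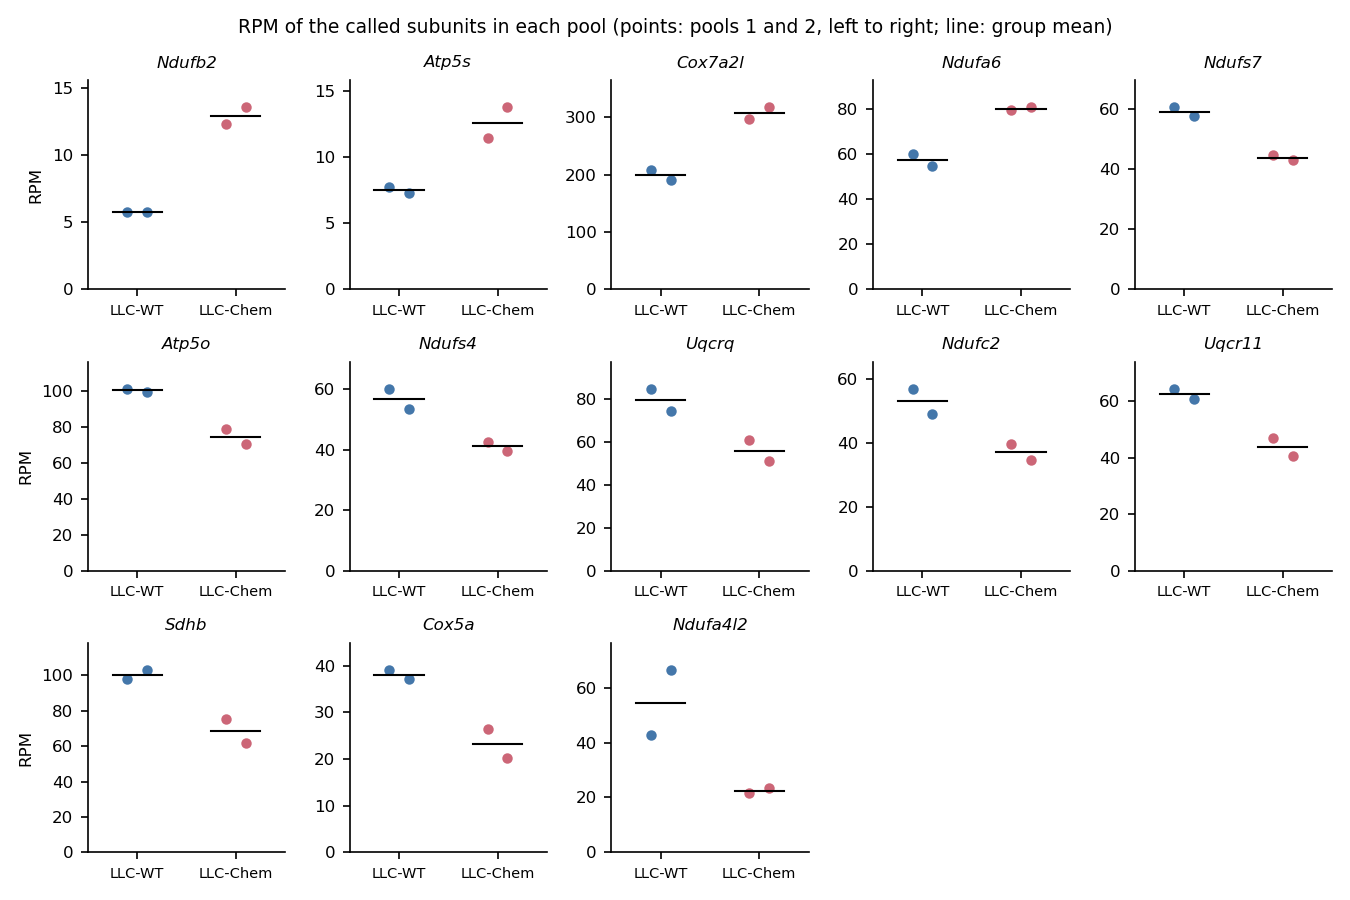
RPM (vertical axes, starting at 0) of the 13 called subunits in each pool, with LLC-WT in blue, LLC-Chem in red and a line at each group mean. Groups do not overlap in any panel, Ndufb2, Atp5s, Cox7a2l and Ndufa6 are higher in LLC-Chem, and the pools of LLC-WT lie farthest apart for Ndufa4l2.

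Complex II, succinate dehydrogenase, links the citric acid cycle to the respiratory chain and is built wholly from nuclear genes. In all 4 of its genes both LLC-Chem pools lay below both LLC-WT pools. The flavoprotein gene Sdha measured 257 and 248 RPM in LLC-WT and 214 and 194 RPM in LLC-Chem (adjusted p = 0.0798, limma). Sdhb, the iron-sulfur subunit (chr4:140961203-140979193, plus strand), fell from 97.9 and 103 RPM to 75.2 and 61.7 RPM, a fold change of -0.56 ± 0.13 (SE, adjusted p = 0.0348, limma). The membrane anchors Sdhc and Sdhd did not pass the test. Sdhc measured 143 and 132 RPM against 130 and 128 RPM (adjusted p = 0.506, limma), and Sdhd 177 and 161 RPM against 146 and 138 RPM (adjusted p = 0.128, limma).

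Of the 8 nuclear subunits of complex III, 2 small ones without a redox group were called lower. Uqcr11 measured 64.4 and 60.7 RPM in LLC-WT and 47.1 and 40.7 RPM in LLC-Chem (fold change -0.51 ± 0.12 SE, adjusted p = 0.0361, limma). Uqcrq, which sits beside cytochrome b, measured 85 and 74.7 RPM against 60.9 and 51.2 RPM (fold change -0.51 ± 0.13 SE, adjusted p = 0.0462, limma). The Rieske iron-sulfur protein gene Uqcrfs1 measured 100.5 and 91.4 RPM against 81.4 and 76.2 RPM and missed the threshold (adjusted p = 0.1, limma). Uqcrh, the hinge protein at the docking site of cytochrome c, was the only 1 of the 8 that was higher in both LLC-Chem pools, with 150 and 128 RPM against 163 and 168 RPM (adjusted p = 0.148, limma).

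Of the 18 nuclear genes named for complex IV, cytochrome c oxidase, 12 were tested, 1 was called lower and 1 higher. Cox5a, a matrix-side subunit of the enzyme, measured 39 and 37.1 RPM in LLC-WT and 26.4 and 20.2 RPM in LLC-Chem (fold change -0.71 ± 0.16 SE, adjusted p = 0.0345, limma). Cox5b, its neighbour that binds zinc, measured 138 and 136 RPM against 121 and 102 RPM (adjusted p = 0.109, limma). Cox7a2l, known as a factor that joins complexes III and IV into supercomplexes, rose from 208 and 190 RPM to 297 and 318 RPM (fold change 0.62 ± 0.11 SE, adjusted p = 0.02, limma). Its paralog Cox7a2, a subunit of the enzyme itself, measured 91.9 and 83.3 RPM against 86.4 and 83.9 RPM, with overlapping pools. Of the 50-base words of Cox7a2l, 13.8% also occur in a pseudogene, Gm6969, which stayed at or under 0.8 RPM in each pool.

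Complex IV has subunits in a general form and in a form of muscle, lung or testis, and the general forms were far higher. Per kilobase in LLC-WT, Cox4i1 was at 150.2 RPM and Cox4i2 at 1.52 RPM. Cox4i1, the general form of subunit 4, measured 239 and 227 RPM in LLC-WT and 228 and 224 RPM in LLC-Chem, with overlapping pools and a fold change of -0.04 that changes sign with TMM scaling (0.0054). Cox4i2, the form known from lung and from cells short of oxygen, was under the filter at 1.5 and 0.9 RPM against 0.5 and 0.4 RPM. As a ratio of RPM it came to 0.628% and 0.396% of Cox4i1 in LLC-WT and 0.219% and 0.178% in LLC-Chem, lower in both LLC-Chem pools (exact permutation p = 0.33). The mural cell markers above moved in the same direction, and their part in this ratio was not tested. Lonp1, the protease that removes the Cox4i1 protein when oxygen is low, measured 116 and 112 RPM against 123 and 115 RPM (adjusted p = 0.67, limma).

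The forms known from muscle were measured at low levels. Cox6a2 measured 0.65 and 0.5 RPM against 0.25 and 0.15 RPM. The general form Cox6a1 measured 138 and 142 RPM in LLC-WT and 113 and 89.1 RPM in LLC-Chem. Its fold change was -0.48 ± 0.14 (SE, adjusted p = 0.0547, limma), and DESeq2 called it lower (adjusted p = 0.0396). Cox7a1 measured 2.0 and 2.3 RPM against 2.6 and 2.95 RPM (adjusted p = 0.321, limma), or 2.18% and 2.76% of the RPM of Cox7a2 against 3.01% and 3.51%. Of the skeletal muscle markers Tnnt3 and Tnni2 were called higher, Ckm and Myh4 were at 0 in each pool, and Acta1 (0.25 and 0.5 against 0.15 and 0.1 RPM), Mylpf (1.05 and 0.85 against 0.85 and 0.65 RPM) and Myh1 (at most 0.1 RPM) were not tested. The list of 7 summed to 3.65 and 5.3 RPM against 8.5 and 9.79 RPM. The part of muscle RNA in Cox7a1 was not tested. Cox8b, Cox8c and the testis form Cox7b2 had no read in any pool, which allows up to 0.0883 to 0.105 RPM in counting error alone. Cox6b2, also of testis, measured 0.75 and 1.3 RPM against 0.35 and 0.6 RPM. The general forms were not called by limma in the main fit, where all but Cox6a1 were also uncalled by DESeq2. Cox6b1 measured 134 and 127 RPM in LLC-WT and 113 and 99.7 RPM in LLC-Chem (adjusted p = 0.0919, limma), and Cox7b 103 and 90.8 RPM against 86.4 and 84.7 RPM (adjusted p = 0.259, limma). Both were lower in both LLC-Chem pools, while the pools of Cox8a overlapped at 197 and 199 RPM against 200.3 and 159 RPM (adjusted p = 0.439, limma).

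For complex V, all 17 nuclear genes named for it were tested and 11 were lower in both LLC-Chem pools. Atp5sl, counted among the 17 by its name, carries the symbol Dmac2 in a later annotation. Atp5b, the catalytic beta subunit, measured 1135 and 1104 RPM in LLC-WT and 951 and 813 RPM in LLC-Chem, and Atp5a1, the alpha subunit, 753 and 743 RPM against 655 and 601 RPM. Neither passed the test (adjusted p = 0.132 and 0.172, limma) although the pools of neither overlapped. Per kilobase in LLC-WT they lay at 264 and 239 RPM, behind Cox8a of complex IV at 319.7 RPM. Atp5o, the stalk subunit that holds F1 to the membrane part, was called lower, with 101 and 99.4 RPM against 78.4 and 70.2 RPM (fold change -0.43 ± 0.10 SE, adjusted p = 0.0388, limma). Of its exon bases 47.9% lie under exons of other genes, mostly antisense, and 41.6% of its 50-base words are shared, so that its count is uncertain. Atp5s, coupling factor B, is not a core subunit and matched by name. It measured 7.7 and 7.3 RPM in LLC-WT and 11.4 and 13.7 RPM in LLC-Chem (fold change 0.71 ± 0.17 SE, adjusted p = 0.0402, limma).

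The rotor ring of complex V is made of 1 protein that 3 genes encode, which differ in the part that is cut off on import. Atp5g1 measured 83.9 and 80.3 RPM in LLC-WT and 69.3 and 58.4 RPM in LLC-Chem, and Atp5g3 279 and 235 RPM against 216 and 199 RPM. Atp5g2 had the opposite sign, at 124 and 108 RPM against 132 and 138 RPM. None of the 3 was called (adjusted p = 0.0771, 0.122 and 0.181, limma). In RPM, Atp5g2 came to 147% and 134% of Atp5g1 in LLC-WT and to 190% and 236% in LLC-Chem (exact permutation p = 0.33), while Atp5g3 overlapped at 332% and 293% against 311% and 342%. As 38.3% of the 50-base words of Atp5g2 also occur in other genes, mostly in the pseudogene Gm10175, its level is uncertain.

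The promoters of 5 called members are shown for motifs of the factors that textbooks name for respiratory genes. Sequences are from RefSeq on GRCm38.p6, from 250 bases before to 50 after the start of transcription, and 66 of the 97 members matched. Capitals mark TGCGCA (NRF1 core), CCGGAAG (GABP), AAGGTCA (estrogen-related receptors), AAGATGGC (YY1) and ACGTG or GCGTG (hypoxia response elements) on either strand, where neighbouring matches may overlap. Ndufa6 and Cox7a2l were called higher and Sdhb, Uqcr11 and Cox5a lower, and these 5 of the 10 called members with a window were chosen after their motifs were seen.
Ndufa6, chr15:82354242-82354541, minus strand: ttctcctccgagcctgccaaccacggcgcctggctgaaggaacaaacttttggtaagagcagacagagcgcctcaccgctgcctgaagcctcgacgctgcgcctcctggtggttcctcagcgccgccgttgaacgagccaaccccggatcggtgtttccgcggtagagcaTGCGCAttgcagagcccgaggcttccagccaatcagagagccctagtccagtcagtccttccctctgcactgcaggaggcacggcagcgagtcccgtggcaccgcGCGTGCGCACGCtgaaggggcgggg
Cox7a2l, chr17:83514284-83514583, minus strand: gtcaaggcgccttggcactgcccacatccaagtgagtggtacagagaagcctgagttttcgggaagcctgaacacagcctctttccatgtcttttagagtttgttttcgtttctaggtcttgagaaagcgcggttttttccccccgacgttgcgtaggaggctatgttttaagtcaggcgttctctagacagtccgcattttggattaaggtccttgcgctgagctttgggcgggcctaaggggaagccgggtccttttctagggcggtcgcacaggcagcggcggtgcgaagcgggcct
Sdhb, chr4:140961021-140961320, plus strand: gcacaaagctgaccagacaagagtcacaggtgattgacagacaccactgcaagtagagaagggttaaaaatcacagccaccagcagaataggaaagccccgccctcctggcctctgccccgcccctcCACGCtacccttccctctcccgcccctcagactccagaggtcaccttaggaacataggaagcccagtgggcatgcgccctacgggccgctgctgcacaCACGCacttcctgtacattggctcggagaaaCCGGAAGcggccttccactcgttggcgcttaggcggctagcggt
Uqcr11, chr10:80406772-80407071, minus strand: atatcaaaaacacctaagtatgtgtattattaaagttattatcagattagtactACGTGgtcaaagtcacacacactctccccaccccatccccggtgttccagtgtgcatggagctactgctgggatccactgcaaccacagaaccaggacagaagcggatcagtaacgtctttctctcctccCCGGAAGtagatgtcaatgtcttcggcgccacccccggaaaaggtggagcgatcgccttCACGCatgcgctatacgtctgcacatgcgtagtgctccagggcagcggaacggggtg
Cox5a, chr9:57520982-57521281, plus strand: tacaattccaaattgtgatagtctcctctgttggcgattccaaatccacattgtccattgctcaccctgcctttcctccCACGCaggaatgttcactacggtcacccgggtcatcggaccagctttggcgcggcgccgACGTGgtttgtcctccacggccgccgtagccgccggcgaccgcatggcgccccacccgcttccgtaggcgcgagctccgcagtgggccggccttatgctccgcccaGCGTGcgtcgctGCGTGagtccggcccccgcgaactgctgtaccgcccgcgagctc

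In Ndufa6, an NRF1 core 28 bases after the start overlaps GCGTG on each side, and a further core lies 80 bases before it. The Cox7a2l window held none of these letters. Sdhb and Uqcr11 each held CCGGAAG, 6 bases after and 66 bases before the start. Of the 5 called members not shown, Ndufs4 and Ndufs7 held AAGATGGC alone, Ndufb2 AAGGTCA alone, and Ndufc2 and Atp5o GCGTG alone. The 71 windows of the 66 members held the NRF1 core in 25.4%, CCGGAAG in 22.5%, AAGATGGC in 12.7% and AAGGTCA in 11.3%. Over all 32851 promoters of this length the shares were 7.76%, 8.86%, 2.75% and 4.72%. For ACGTG the shares were 23.9% of member windows and 19.6% of all promoters, and for GCGTG 53.5% and 32.4%. These counts describe letters in a window and were not tested.

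None of the 13 protein genes of mitochondrial DNA was called, and 1 pool stood apart in all of them. Their sum was 25205 and 14991 RPM in LLC-WT and 21510.3 and 27169 RPM in LLC-Chem (exact permutation p = 0.667). LLC-WT pool 2 was the lowest of the 4 pools and the other 3 pools overlapped between groups. Mitochondrial protein genes took 2.52% and 1.5% of all reads in LLC-WT and 2.15% and 2.72% in LLC-Chem. Of the 11 genes tested none was called by limma, edgeR or DESeq2 and at an unadjusted p under 0.05 limma and edgeR had 0 and DESeq2 2 higher, with a smallest adjusted p in limma of 0.171 for mt-Nd6. All 11 fold changes were above 0, from 0.10 to 0.65 with a median of 0.49, but without LLC-WT pool 2 the median was 0.008 and mt-Nd1, mt-Co1, mt-Atp6, mt-Nd3 and mt-Cytb were below 0. The ratio of mitochondrial to nuclear subunit RNA was 2.72 and 1.71 in LLC-WT and 2.62 and 3.55 in LLC-Chem.

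mt-Co1, the catalytic subunit of complex IV, held 52.9% to 56.3% of the reads counted for these genes in each pool. It measured 13587 and 7937 RPM in LLC-WT and 11524 and 15303 RPM in LLC-Chem. Of the mitochondrial sums, 5 genes with nuclear copies, given below, held 63.1 and 31.1 RPM in LLC-WT and 57.9 and 76 RPM in LLC-Chem. If their reads were lost in counting, the share of mt-Co1 is too high and the sums and ratios above are too low. This was not tested. mt-Cytb, cytochrome b of complex III, measured 4024 and 2611 RPM against 3182 and 3790.5 RPM. The membrane arm genes of complex I were led per kilobase by mt-Nd1 (2501 RPM in LLC-WT), with 3045 and 1742 RPM against 2376 and 2759 RPM. mt-Nd5 measured 1525 and 904 RPM against 1495 and 1938 RPM, mt-Nd4 1269 and 833 RPM against 1169 and 1393 RPM, and mt-Nd2 1189 and 631 RPM against 1163 and 1343 RPM. mt-Nd6, the only 1 of the 13 on the other strand, measured 501 and 303 RPM against 542 and 566 RPM. In each of these genes the lowest value was that of LLC-WT pool 2.

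The other mitochondrial genes were measured at levels far below these. mt-Co2, which takes the electrons from cytochrome c, measured 29 and 15.4 RPM in LLC-WT and 25.9 and 34.6 RPM in LLC-Chem, and mt-Co3 17.7 and 9.19 RPM against 17.7 and 23.3 RPM. mt-Atp6, of the proton channel of complex V, measured 14.0 and 5.55 RPM against 11.8 and 15.5 RPM. mt-Nd3 stayed at 0.7 to 1.4 RPM, mt-Nd4l at 0.25 to 1.6 RPM and mt-Atp8 at 0.05 to 0.75 RPM. Per kilobase in LLC-WT, mt-Co1 was at 6966 RPM and mt-Co2, a subunit of the same enzyme, at 32.5 RPM.

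For 5 of these 6 genes the annotation holds a near-identical copy in nuclear DNA on chromosome 1. mt-Co2, mt-Co3, mt-Atp6, mt-Nd4l and mt-Nd3 share 98.0% to 100% of their 50-base words with another gene, while mt-Nd1, mt-Cytb and mt-Nd6 share none and mt-Nd2 and mt-Nd5 share 8.19% and 7.61%. mt-Co2 and its copy Gm28661 are identical over 681 bases, and mt-Nd3 and its copy Gm28438 over 344 of 345. The first 60 bases of both pairs are shown because reads that lie wholly in identical stretches cannot be assigned by sequence. Capitals mark the base that differs.
mt-Co2, chrM:7013-7072: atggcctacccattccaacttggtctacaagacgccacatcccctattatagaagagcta
Gm28661, copy on chromosome 1: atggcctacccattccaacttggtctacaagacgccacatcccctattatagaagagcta
mt-Nd3, chrM:9459-9518: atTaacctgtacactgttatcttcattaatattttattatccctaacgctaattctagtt
Gm28438, copy on chromosome 1: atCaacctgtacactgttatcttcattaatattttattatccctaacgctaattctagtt

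Gm28661 itself was listed at 26.6 and 13 RPM in LLC-WT and 18.7 and 23.8 RPM in LLC-Chem, close to mt-Co2. mt-Nd4 and mt-Co1 share 62.2% and 51.1% of their words and were measured at 833 RPM or more in every pool. mt-Atp8 shares no word with another annotated gene and was still at or under 0.75 RPM. Only annotated genes were compared. mt-Atp8 starts between mt-Co2 and mt-Atp6, whose copies lie at chr1:24614885-24615565 and chr1:24613974-24614651. Of its bases, 21.1% overlap other exons on its strand. The stretch between these copies was not compared with it. Levels of the 5 genes with such copies are therefore not comparable with those of other mitochondrial genes. The level of mt-Atp8 may not be comparable either. How the counting treated reads that fit several places is not given in the sources used here.

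**Figure D4:**
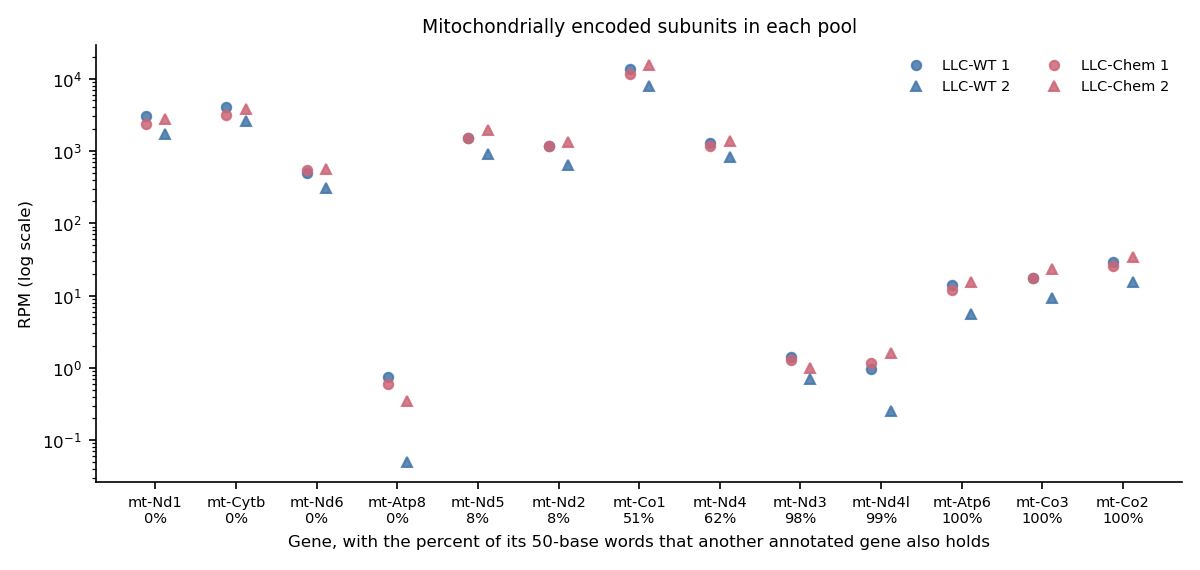
RPM (log scale) of the 13 mitochondrially encoded subunits in each pool, ordered by the percent of 50-base words shared with another annotated gene, given under each name. Genes with 98% or more shared words and mt-Atp8 lie under 35 RPM and the others above 300 RPM, and LLC-WT pool 2 (blue triangle) is the lowest pool for each gene.

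Other genes of the pathway were read from lists made of known roles. Over all genes tested, limma called 9.54% higher and 13.5% lower. Of 47 tested assembly factors of complexes I to V, which build the complexes without staying in them, limma called none (2 higher and 3 lower at an unadjusted p under 0.05), edgeR and DESeq2 each called 1 higher, and the median fold change was -0.08. Of 19 carriers and donors around ubiquinone and cytochrome c, 1 was called lower, Cycs, the gene of cytochrome c, at 99.9 and 74.6 RPM against 57.2 and 55.6 RPM (fold change -0.61, adjusted p = 0.0452, limma), and the median was -0.25. Of 18 genes of pyruvate dehydrogenase and the citric acid cycle, Dlst alone was called, from 200 and 185 RPM to 132 and 122 RPM (fold change -0.60, adjusted p = 0.0202, limma), with a median of -0.15. Of 7 carriers and channels, the ADP/ATP carrier gene Slc25a5 was called lower, from 331 and 307 RPM to 244 and 202 RPM (fold change -0.52, adjusted p = 0.0424, limma). Of 5 tested subunits that the symbol rule does not reach, 2010107E04Rik, a small ATP synthase subunit, was called lower, from 70.3 and 62.8 RPM to 50.2 and 47.1 RPM (fold change -0.45, adjusted p = 0.0422, limma), and Cyc1, cytochrome c1 of complex III, measured 116 and 110 RPM against 94.8 and 81.1 RPM (adjusted p = 0.072, limma).

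Mitochondrial ribosomal proteins, which translate the mitochondrially encoded subunits, had a median fold change of -0.24 over 76 genes, the same as the nuclear subunits. Of these 53 (69.7%) were lower in both LLC-Chem pools, against 39.3% of all genes tested. By limma 4 (5.26%) were called lower and 1 (1.32%) higher, against 13.5% and 9.54% of all genes tested. Mrpl24 measured 35 and 35.4 RPM in LLC-WT and 46.7 and 59.8 RPM in LLC-Chem (fold change 0.58, adjusted p = 0.0435, limma), and Mrps25, with the largest fall among the calls, 37.1 and 29.6 RPM against 23.4 and 20.5 RPM (fold change -0.59, adjusted p = 0.0496, limma). Cytosolic ribosomal proteins had a median of 0.44 over 80 genes, with 11 (13.75%) called higher and 3 (3.75%) lower. Genes with merged exons under 1000 bases had a median of 0.21 over the 685 tested, where the 18 nuclear subunits among them had -0.31. Most subunits are longer, and there the medians lay closer to those of all genes. They were -0.22 for 30 subunits and -0.17 for all genes at 1000 to 2000 bases, -0.19 for 20 subunits and -0.11 for all genes up to 4000 bases, and -0.23 for 10 subunits and 0.0038 for all genes above that. Neither the 16 tested genes of mitochondrial DNA transcription and replication nor the 9 tested nuclear regulators (Nrf1, Gabpa, Esrra, Yy1 and others) had a call by limma, with medians of -0.02 and -0.01. At an unadjusted p under 0.05 limma had 2 and 1 of them higher and 0 lower, edgeR called 0 in both lists, and DESeq2 called 1 of the former higher. Ppargc1a, a coactivator of respiratory genes, stayed at or under 0.1 RPM.

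Of genes known for switching mitochondrial metabolism at low oxygen, 9 of 13 (69.2%) had both LLC-Chem values above both LLC-WT values. Of all genes tested, 33.1% did. A further 2 (15.4%) had both below, against 39.3% of all genes, and 2 overlapped. Of these 13 genes limma called 6 (46.2%) higher and 1 (7.69%) lower, against 9.54% and 13.5% of all genes tested. Their median fold change was 0.43. Egln3, an oxygen-sensing prolyl hydroxylase, rose most, from 150 and 157 RPM to 337 and 322 RPM (fold change 1.10, adjusted p = 0.00909, limma). Bnip3, Pdk1, Car9, Bnip3l and Mxi1 were the other 5 called higher, with fold changes of 0.51 to 1.08. Iscu, the scaffold on which iron-sulfur clusters are made, fell from 42.1 and 40.9 RPM to 31.8 and 28.9 RPM (fold change -0.45, adjusted p = 0.0446, limma). Ndufa4l2 and Cox4i2, which textbooks also count among genes induced at low oxygen, were lower in LLC-Chem, as given above.

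**Figure D5:**
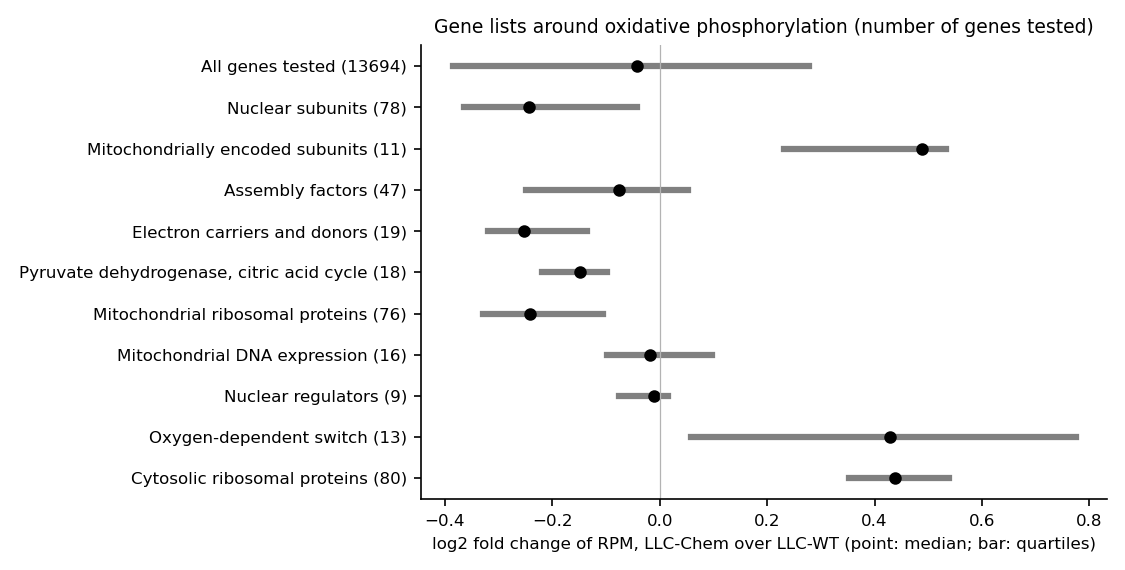
Median (point) and quartiles (bar) of the log2 fold change, LLC-Chem over LLC-WT, for gene lists around oxidative phosphorylation, with the number of genes tested. Nuclear subunits (-0.24), mitochondrial ribosomal proteins (-0.24) and electron carriers (-0.25) lie left of all genes (-0.04), and cytosolic ribosomal proteins (0.44) and the oxygen-dependent genes (0.43) lie right.

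The calls rest on all 4 pools. The 13 called subunits were the same under edgeR's quasi-likelihood test on recovered reads, and DESeq2 called 4 higher and 12 lower. With the replicate number as a block, Ndufb2 and Ndufa4l2 alone remained called. With any 1 pool left out limma called no subunit and no other gene, with 3 to 33 subunits lower and 4 to 14 higher at an unadjusted p under 0.05.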

How the data were processed

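RNA of whole tumors was sequenced as paired-end libraries from 2 LLC-WT and 2 LLC-Chem pools. The authors aligned the reads with STAR to GRCm38.p4, used HTSeq to count them per gene of an Ensembl annotation of GRCm38, and deposited RPM for 47729 genes. Versions of these tools and the use of strand are not given in the sources used here, so antisense genes may share reads. The deposited RPM are whole steps of about 0.05, read as a scaling to 20000000 reads with rounding up, and 100% of values above 0 lay within 0.1 of a whole step. Totals were fitted from the steps, in a procedure tested on simulated data. Limits of detection cover counting error only, while SE and SD measure the spread between pools.

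Differences were tested from the RPM with limma 3.58.1 in R 4.3.3 (lmFit, eBayes with trend) on log2(RPM + 0.5), since RPM are not counts. edgeR 4.0.16, the study's tool, and DESeq2 1.42.0 on recovered reads were alternatives, with pseudocounts of 0.1 and 1, TMM, median-of-ratios and a total without mitochondrial genes, a mean of 5 RPM, no filter, eBayes without trend, the replicate block and leaving out each pool. The crossed block and the classes by exon length were added after the data were seen.

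Members and lists were chosen with earlier results of these data known. Values in every pool are given for mitochondrial genes, isoform pairs, complex II and called members, and from each list for the called gene with the largest rise and fall, with some of the weakest as ranges. Other members (Ndufs1, Ndufv3, Uqcrfs1, Uqcrh, Cox5b, Atp5a1 and Atp5b) and list genes (Lonp1, Cyc1, Ppargc1a) were named after their values were seen. Coordinates, exon lengths and shared words were taken from the GENCODE M21 annotation of GRCm38, where 47310 identifiers and all 97 members were found. Python 3.11.15, numpy 2.4.6, pandas 2.3.3, scipy 1.17.1 and matplotlib 3.10.9 served for summaries.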

Additional observations from a re-analysis of the deposited data

How the results depend on the processing

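The direction of the median fold change of nuclear subunits (-0.31 to -0.18) held under every setting tried, and that of mitochondrial genes ran from 0.0080 without LLC-WT pool 2 to 0.87 without LLC-WT pool 1. With the replicate block 549 genes were called higher and 1064 lower, and 1 subunit higher and 1 lower. Same-numbered pools had a correlation of -0.14 of their deviations across genes and share only a number, and with pools paired crosswise, added after seeing the data, 1579 genes were called higher and 2320 lower, and 5 subunits higher and 10 lower. With no filter on low values 1 gene was called higher and 0 lower and 0 subunits either way, with 3394 genes higher and 4003 lower at an unadjusted p under 0.05. eBayes without trend called 3 subunits higher and 1 lower. Leaving out 1 pool gave 0 to 0 for all 4 counts of calls, where the lone pool is assumed to vary like the others. The cause of these losses was not tested.

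The fold changes of some subunits, none of them called, turned sign. Cox4i1 was 0.0054 with TMM and 0.0061 with edgeR, and Cox7a2 0.0068 with TMM and 0.0068 with edgeR. With 1 pool left out, the range was -0.11 to 0.031 for Cox7a2, -0.25 to 0.56 for mt-Nd1, -0.033 to 0.74 for mt-Co1, -0.048 to 1.21 for mt-Atp6, -0.21 to 0.45 for mt-Nd3, -0.21 to 0.41 for mt-Cytb and -0.31 to 0.018 for Cox8a. Depth limits the weakest subunits, for which 3 reads are worth 0.0883 to 0.105 RPM.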
